A study of Bos taurus with 10 samples.

Results

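The genes described here build triacylglycerol in liver cells or break it down again: GPAM, AGPAT2, LPIN1, LPIN2, DGAT1, DGAT2, PNPLA2, PNPLA3, ABHD5 and PLIN3. They were chosen by name, and a gene was counted as measured where a probe set carried its symbol and no other in the platform annotation. On this rule 8 of the 10 genes were measured, each by 1 probe set, out of 9155 genes named on the array. LPIN2, a phosphatidate phosphatase like LPIN1, and PNPLA3, a lipid droplet hydrolase related to PNPLA2, had no probe set named in that annotation and are not analysed here. With 1 probe set per gene, no value below has a second probe set to set beside it.

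Liver biopsies came from 40 female Holstein cows, primiparous and multiparous, in week 5 of lactation. The 20 CLA cows ate conjugated linoleic acid (CLA), meaning isomers of linoleic acid whose double bonds are conjugated, in a fat protected from the rumen, and the 20 control cows ate a control fat that was also rumen-protected; the fatty acids of either fat are not given in the sources used here. Cows were offered 630 g dry matter per day of a supplemental concentrate, 27.3% of which was one or the other fat, between week 3 before calving and week 14 of lactation, and both groups had the same mixed ration. Each pool joined RNA from 4 cows, and each of the 5 CLA pools and 5 control pools was hybridised to 1 Affymetrix bovine array. Every error and p-value given here therefore rests on the spread between pools and not between cows. In limma the spread of each probe set is also drawn toward a value estimated from all probe sets. Its SE and p-values are therefore not those of that probe set's own spread alone.

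Triacylglycerol is made by adding acyl chains to glycerol 3-phosphate in turn, removing the phosphate, and adding the last chain to the diacylglycerol that remains. The product is stored in lipid droplets coated by perilipins, or leaves the cell in very low density lipoproteins, and lipases of the patatin family start its breakdown at the droplet. In early lactation the dairy cow mobilises body fat, and the ruminant liver re-esterifies much of the fatty acid it takes up while exporting little of it, which is the background of fatty liver in this species. No protein or regulatory sequence was at hand for these genes, and none is shown.

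Values are log2 expression values as deposited, in which a difference of 1 is a doubling, and differences are CLA minus control. The arrays lay close together, with correlations from 0.988 to 0.996 between any 2 arrays across probe sets. The array medians were 5.79 to 5.82 in the CLA pools and 5.83 to 5.85 in the control pools (exact two-sided permutation p = 0.0079, the smallest that the design allows), a shift of -0.031. The SD of an array's values was 2.38 to 2.43 in the CLA pools and 2.34 to 2.39 in the control pools (exact permutation p = 0.0238), and without control pool 5, which had the narrowest spread, that p was 0.0556. The tissue label was checked against 10 hepatocyte markers, among them albumin and transthyretin, whose mean level was 12.87 to 12.92 in the CLA pools and 12.74 to 12.93 in the control pools. None of the 10 lay among the dimmest 30% of probe sets. Of the 10, 9 lay higher in the CLA pools and 1 lower (median 0.049), against 6 and 4 after quantile normalization, and 0 had an unadjusted p under 0.05 in limma at the brightest probe set. Transferrin (TF) had every CLA pool above every control pool, but only just, at 14.68 to 14.72 against 14.60 to 14.67. Its means differed by 0.064 (limma, unadjusted p = 0.271). Over all probe sets the CLA pools were all above in 1.18%. Albumin (ALB) had several probe sets, of which a dim one, with a mean of 4.85, differed by 0.24 (limma, unadjusted p = 0.0334). The ALB probe set used as marker gave 0.042, and the remaining ones ranged from -0.13 to 0.12.

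Of the 8 measured genes, 0 passed limma's test with Benjamini-Hochberg adjustment over all 24016 probe sets, where 0% of probe sets passed, and their adjusted p ranged from 0.562 to 0.930. At an unadjusted p under 0.05 limma counted 0 of the 8, against 8.89% of all probe sets, 4.01% with CLA higher and 4.88% with CLA lower, and the unmoderated test counted 2, GPAM and ABHD5, against 9.17% of all probe sets in that test. CLA and control pools overlapped for all 8 genes. Of all probe sets 1.97% showed no overlap, with the CLA pools all above in 1.18% and all below in 0.791%. Differences above 0 were found for 5 genes and below 0 for 3, although the signs of PNPLA2 and PLIN3 turned when 1 pool was left out. Over all genes, each by its brightest probe set, 46.5% lay above 0 and 53.5% below, with a median of -0.010. That balance depends on scaling: with array medians subtracted, 5302 of the 9155 genes lay above 0 and 3853 below (median 0.021), and the 8 genes again had 5 above and 3 below (median 0.086). The median of the 8 genes was 0.055. It was 0.012 without CLA pool 2, 0.012 without CLA pool 5, -0.0028 without control pool 2, 0.0068 without control pool 4 and -0.0055 without control pool 5. All 8 confidence intervals (95%, not adjusted for the number of genes) included 0. They reached from -0.36 to 0.36 at the outermost, or 1.28-fold in either direction, and a p above the threshold does not show that the groups were alike within that range.

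**Figure D1:**
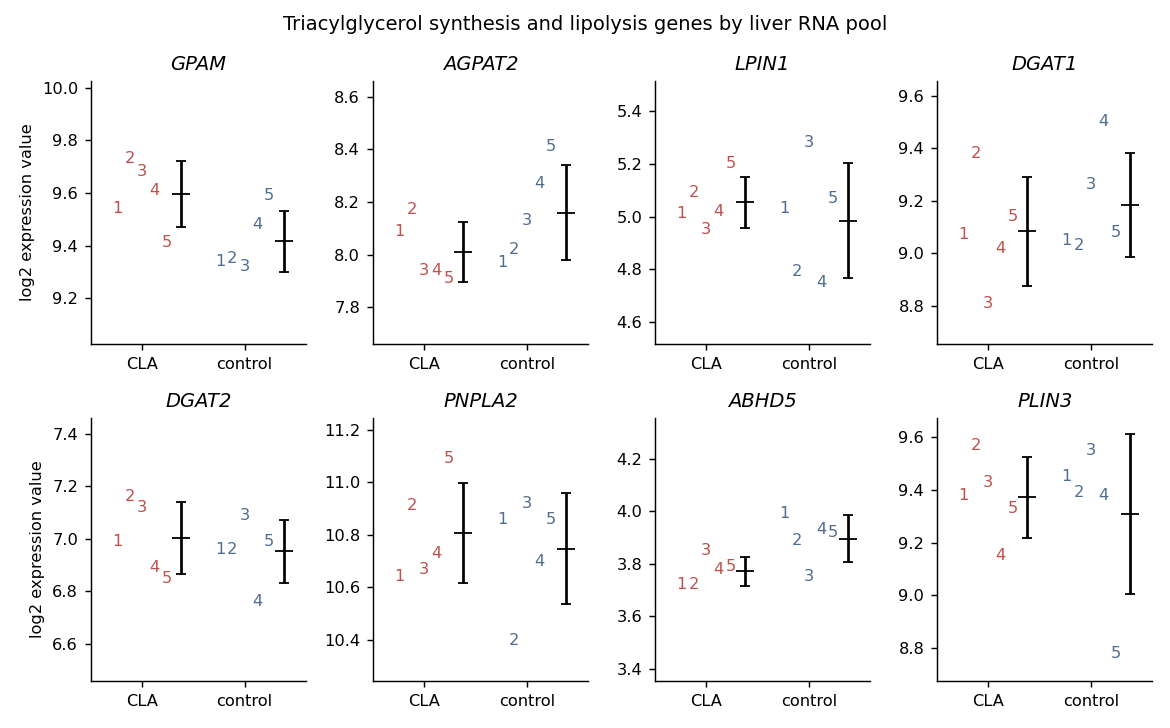
Log2 expression values (vertical axes, each spanning 1 log2 unit) of the 8 measured genes in CLA pools (left, red) and control pools (right, blue). Each digit is the number of a pool, and the black marks give the mean and the SD of 5 pools. The groups overlap in every panel, and control pool 5 lies far below the other pools for PLIN3.

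The acyltransferase GPAM, the mitochondrial glycerol-3-phosphate acyltransferase, adds the first acyl chain and commits fatty acid to glycerolipid. Its values were 9.54, 9.73, 9.68, 9.61 and 9.41 in CLA pools 1 to 5, against 9.34, 9.35, 9.32, 9.48 and 9.59 in control pools 1 to 5. CLA pools 1 to 4 lay above control pools 1 to 4, while CLA pool 5 lay inside the control range and control pool 5 inside the CLA range. GPAM averaged 9.59 ± 0.13 in the CLA pools and 9.42 ± 0.12 in the control pools (SD, n = 5 each). The difference, 0.18 ± 0.082 SE (1.13-fold, confidence interval from -0.0011 to 0.36), was the largest of the 8 and lay at the edge of the test before adjustment (limma, unadjusted p = 0.0512, Benjamini-Hochberg adjusted p = 0.562). Without CLA pool 5 it was 0.22 (limma, unadjusted p = 0.0185) and without control pool 5 also 0.22 (unadjusted p = 0.0193), and leaving out any other pool gave an unadjusted p above 0.05.

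AGPAT2 adds the second acyl chain and so forms phosphatidic acid. It stood at 8.09, 8.17, 7.94, 7.94 and 7.91 in CLA pools 1 to 5, against 7.97, 8.02, 8.13, 8.27 and 8.41 in control pools 1 to 5. CLA pools 3, 4 and 5 lay below every control pool, and CLA pools 1 and 2 lay inside the control range. The means were 8.01 ± 0.11 in the CLA pools and 8.16 ± 0.18 in the control pools (SD, n = 5 each), a difference of -0.15 ± 0.095 SE with a confidence interval from -0.36 to 0.056 (limma, unadjusted p = 0.139, Benjamini-Hochberg adjusted p = 0.687). That is the lowest difference among the 8 genes. With 1 pool left out it ranged from -0.20 to -0.088, closest to 0 without control pool 5.

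LPIN1, lipin 1, removes the phosphate from phosphatidic acid to leave diacylglycerol, and in mouse liver it also acts in the nucleus as a partner of PPARGC1A. Its values were 5.01, 5.09, 4.95, 5.02 and 5.20 in CLA pools 1 to 5, and 5.03, 4.79, 5.28, 4.75 and 5.07 in control pools 1 to 5. The CLA pools all fell inside the control range, which was wider. The SD was 0.096 around a mean of 5.05 in the CLA pools and 0.22 around 4.98 in the control pools (n = 5 each). LPIN1 differed by 0.070 ± 0.10 SE (limma, Benjamini-Hochberg adjusted p = 0.888). It was 0.14 without control pool 3. Leaving out control pool 2 gave 0.022, control pool 4 gave 0.012 and CLA pool 5 gave 0.034, and array weights gave 0.0055. The array reads it dimly, with 39.2% of probe sets at or below its mean.

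DGAT1 and DGAT2 both add the last acyl chain to diacylglycerol, although the enzymes belong to unrelated protein families. DGAT1 read 9.07, 9.38, 8.81, 9.02 and 9.14 in CLA pools 1 to 5, against 9.05, 9.03, 9.26, 9.50 and 9.08 in control pools 1 to 5. Its lowest value was that of CLA pool 3 and its highest that of control pool 4. The difference of -0.10 ± 0.12 SE lay inside the spread between pools, which had an SD of 0.21 in the CLA pools and 0.20 in the control pools (limma, Benjamini-Hochberg adjusted p = 0.845), and it ranged from -0.17 to -0.021 with 1 pool left out, closest to 0 without control pool 4. DGAT2 read 6.99, 7.16, 7.12, 6.89 and 6.85 in CLA pools 1 to 5, and 6.96, 6.96, 7.09, 6.76 and 6.99 in control pools 1 to 5. The 2 groups covered nearly the same range. DGAT2 differed by 0.050 ± 0.085 SE with a confidence interval from -0.14 to 0.24 (limma, Benjamini-Hochberg adjusted p = 0.908), and by 0.0020 to 0.088 with 1 pool left out, least without control pool 4.

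PNPLA2, adipose triglyceride lipase, takes the first fatty acid off stored triacylglycerol. Its values were 10.64, 10.91, 10.67, 10.73 and 11.09 in CLA pools 1 to 5, against 10.86, 10.40, 10.92, 10.70 and 10.86 in control pools 1 to 5. CLA pool 5 stood above and control pool 2 below all others. The means were 10.81 ± 0.19 in the CLA pools and 10.75 ± 0.21 in the control pools (SD, n = 5 each), a difference of 0.060 ± 0.12 SE (limma, Benjamini-Hochberg adjusted p = 0.918). Its sign rested on those pools: it was -0.011 without CLA pool 5 and -0.027 without control pool 2.

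ABHD5, also called CGI-58, is the protein that switches PNPLA2 on. Its values were 3.72, 3.72, 3.85, 3.78 and 3.79 in CLA pools 1 to 5, against 3.99, 3.89, 3.75, 3.93 and 3.92 in control pools 1 to 5. All CLA pools lay below 4 of the control pools, and control pool 3 lay among the CLA pools. ABHD5 averaged 3.77 ± 0.0545 in the CLA pools and 3.90 ± 0.089 in the control pools (SD, n = 5 each). The difference of -0.12 ± 0.066 SE had a confidence interval from -0.27 to 0.020 (limma, unadjusted p = 0.0853, Benjamini-Hochberg adjusted p = 0.613). Without control pool 3 it was -0.16 (limma, unadjusted p = 0.0328), and after quantile normalization -0.083. The probe set is dim, with 21.4% of probe sets at or below its mean, and the files hold no detection calls, so how much of its signal is background cannot be told.

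PLIN3, a perilipin that coats newly formed droplets, stood at 9.38, 9.57, 9.43, 9.15 and 9.33 in CLA pools 1 to 5, and at 9.45, 9.39, 9.55, 9.38 and 8.78 in control pools 1 to 5. Control pool 5 lay 0.60 below the next pool of its group. PLIN3 had an SD of 0.15 in the CLA pools, where DGAT1 and PNPLA2 varied more, and of 0.30 in the control pools, the widest of the 8 genes there and resting on control pool 5. The difference was 0.062 ± 0.13 SE (limma, Benjamini-Hochberg adjusted p = 0.930) and turned to -0.071 without control pool 5. PLIN3 also tended to be higher on arrays with more widely spread values, but Pearson's r did not pass after adjustment and the p of rho was not adjusted. With group means removed, Pearson's r over the 10 pools was 0.874 (exact permutation within groups p = 0.00493, adjusted 0.0789 over 16 relations of 8 genes with array median and array SD) and Spearman's rho 0.960 (exact permutation p = 0.000278). Leaving out the 2 pools of most extreme spread gave r = 0.615. Control pool 5 had both the lowest PLIN3 value and the narrowest array, and the part of array spread in the PLIN3 value was not tested.

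**Figure D2:**
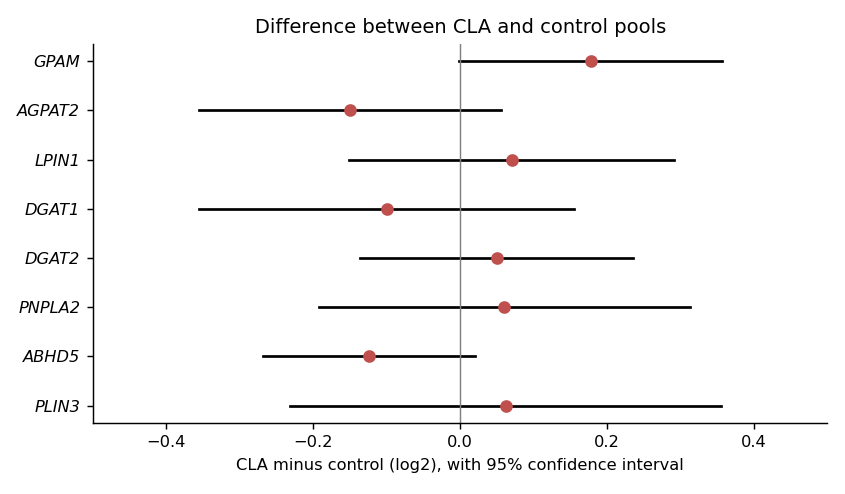
CLA minus control on the log2 scale (horizontal axis) for the 8 measured genes, with the 95% confidence interval from limma. Dots are differences of the means of 5 CLA and 5 control pools, and all 8 intervals include 0, with GPAM closest to leaving it at its lower end.

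The steps of synthesis did not lean one way. GPAM, LPIN1 and DGAT2 lay higher in the CLA pools and AGPAT2 and DGAT1 lower, and on the side of breakdown PNPLA2 lay higher and its activator ABHD5 lower, with 0 of these past the test and PNPLA2 of unsettled sign. GPAM and AGPAT2, the first and the second acylation, had the highest and the lowest difference. Taken within a pool, the log2 ratio of GPAM to AGPAT2 was 1.45, 1.56, 1.74, 1.67 and 1.50 in CLA pools 1 to 5, against 1.37, 1.33, 1.19, 1.21 and 1.18 in control pools 1 to 5. The level of this ratio depends on both probe sets and is not read here, only its change between the groups. Every CLA pool lay above every control pool for this ratio, which averaged 1.58 ± 0.12 in the CLA pools and 1.26 ± 0.088 in the control pools (SD, n = 5 each). It was 0.33 higher in the CLA pools, and after quantile normalization the ranges were still apart, 1.44 to 1.72 in the CLA pools against 1.17 to 1.41 in the control pools. Of the 28 pairs that the 8 genes form, this was the 1 pair (3.57%) whose ratio did not overlap between the groups, and over all pairs of named genes 1.94% did not. The ratio was picked after its values were seen, and it was not tested. A share of 1 pair in 28 is near that of all gene pairs and is read as no result about these genes.

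Between pools of the same group the 2 genes had a positive correlation, which did not pass after adjustment. With group means removed, GPAM and AGPAT2 had a Pearson's r of 0.724 (exact permutation within groups p = 0.0281, adjusted 0.393 over 28 pairs) and a Spearman's rho of 0.712 (exact permutation p = 0.0389, adjusted 0.544). Leaving out CLA pool 2 and control pool 3 gave r = 0.677. Within groups r was 0.503 over the 5 CLA pools and 0.918 over the 5 control pools. AGPAT2 ran against the array median (r = -0.740, exact permutation p = 0.0300, adjusted 0.240 over 16 relations; rho = -0.818, exact permutation p = 0.0133; r = -0.825 without the 2 pools farthest from the median), and GPAM had r = -0.646 with it (exact permutation p = 0.0683, adjusted 0.364; rho = -0.509, exact permutation p = 0.166; r = -0.397 without those pools). The part of the array median in this pair was not tested.

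LPIN1 and PNPLA2 had the closest relation of the 28 pairs. Pearson's r was 0.793 (exact permutation within groups p = 0.00444, adjusted 0.124 over 28 pairs) and Spearman's rho 0.859 (exact permutation p = 0.0025, adjusted 0.0700). Leaving out control pools 3 and 4 gave r = 0.973. It was 0.957 over the CLA pools and 0.786 over the control pools. CLA pool 5 had the highest PNPLA2 and the highest LPIN1 of its group, and control pool 2 the lowest PNPLA2. Neither gene followed the array median or the array SD closely (r between -0.257 and -0.095). No pair passed after adjustment, 2 of 28 had an exact permutation p under 0.05, and r over the 28 pairs ran from -0.492 to 0.793 with a median of 0.014. No such share over all gene pairs is given here, so the count of 2 is read as no result about these genes.

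**Figure D3:**
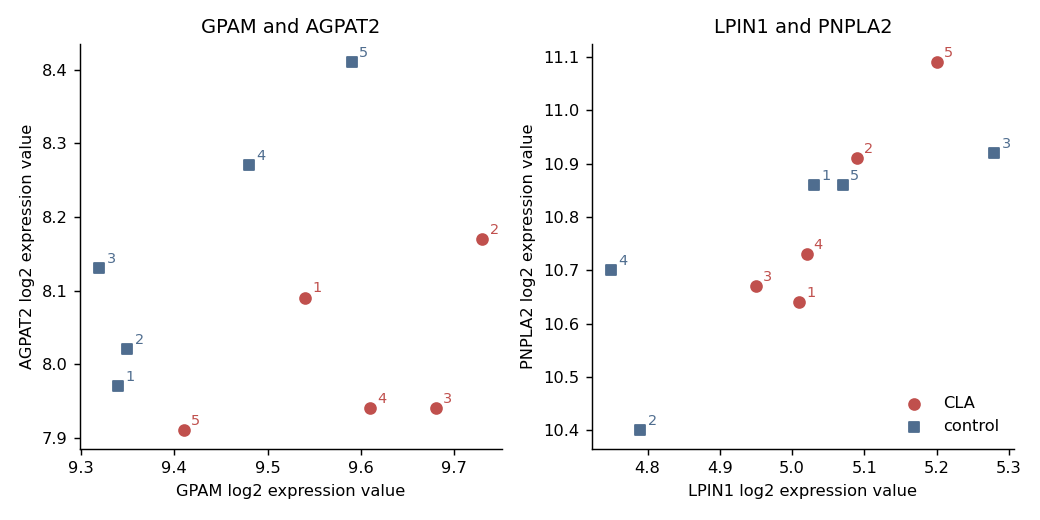
Log2 expression values of GPAM against AGPAT2 (left) and of LPIN1 against PNPLA2 (right) in the 5 CLA pools (red circles) and the 5 control pools (blue squares), numbered by pool. In the left panel the CLA pools lie to the lower right of the control pools, with log2 ratios of 1.45 to 1.74 against 1.18 to 1.37. In the right panel pools with higher LPIN1 have higher PNPLA2, with r = 0.957 over the CLA pools and 0.786 over the control pools.

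Single pools stood out for several genes at once. CLA pool 2 had the highest value of the 10 pools for GPAM, DGAT2 and PLIN3, and lay above the control mean for 7 of the 8 genes, ABHD5 being the exception. Its median deviation from the control mean was 0.18, against -0.089 to -0.022 in the other CLA pools and -0.10 to 0.11 in the control pools. The same pool had the highest value for 9 of 13 measured genes of the lipid droplet coat and its assembly (69.2%), where it had the highest value for 23.0% of all named genes. That share was the largest among the lists of related genes described below. In the others it ran from 0% for regulators to 37.5% for acyl-CoA supply, with 14.3% for the phospholipid branch. PLIN2, a perilipin of that list, was 8.68 in CLA pool 2, 7.31 to 7.80 in the other CLA pools and 7.51 to 7.97 in the control pools. The array of CLA pool 2 had the widest spread of the 10 (SD 2.43) and the lowest median (5.79), and the part of these in its values was not tested.

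**Figure D4:**
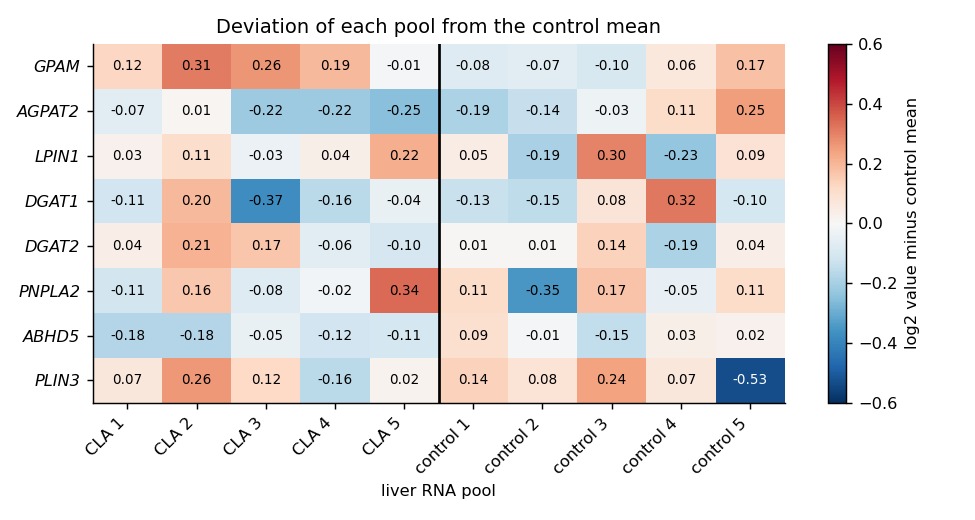
Deviation in log2 units from the control mean for the 8 measured genes (rows) in 5 CLA pools (left of the line) and 5 control pools (right of it). Red is above and blue below the control mean. CLA pool 2 is above it for 7 genes, and the lowest cell is PLIN3 in control pool 5 at -0.53.

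The other genes of glycerolipid metabolism were described in 6 lists with 63 measured genes of 91. Of these 36 lay higher and 27 lower, with a median of 0.030, where 46.5% of all named genes lay higher. None passed limma's adjusted test, and 5 had an unadjusted p under 0.05, where 8.5% of all named genes did. These counts use the brightest probe set of a gene. Among the other probe sets of listed genes, those of ACSL3, LIPC and BSCL2 with such a p are given with their lists. Genes of the lists that are named without such a p are those of smallest p in their list, except GPAT3, GPAT4, AGPAT1, AGPAT3, AGPAT5, G0S2, PLIN2, PLIN5, MLXIPL, SREBF1 and PPARA, which were added after their values were seen because they act next to a measured gene.

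In the list of the glycerol backbone and other acylation steps 5 of 10 genes lay higher and 5 lower (median 0.011, -0.0039 after quantile normalization and -0.023 with the mean of each gene's probe sets), with 0 at an unadjusted p under 0.05. That count was 1, higher, after quantile normalization and also with array medians subtracted. The other glycerol-3-phosphate acyltransferases, GPAT3 and GPAT4, differed by 0.046 ± 0.13 SE and 0.084 ± 0.080 SE, and the second GPAT4 probe set by -0.17. Among relatives of AGPAT2, AGPAT1 differed by -0.14 ± 0.080 SE and AGPAT3 by -0.062 ± 0.066 SE, with other AGPAT3 probe sets at -0.18 and 0.074. AGPAT4, a dim probe set, differed by 0.23 ± 0.12 SE (limma, unadjusted p = 0.0717). For AGPAT5 the difference was 0.35 ± 0.28 SE at the brightest probe set, with -0.11 to 0.25 at 4 others. In the acyl-CoA supply list 7 of 8 genes lay higher (median 0.13), or 6 of 8 after quantile normalization, where 46.5% of all named genes lay higher as deposited. ACSL5 was counted as higher at 0.004. An unadjusted p under 0.05 was found for 0 of the 8. SLC27A2, a very long-chain acyl-CoA synthetase of the liver, differed by 0.20 ± 0.097 SE (limma, unadjusted p = 0.0609). ACSL3, a droplet-associated acyl-CoA synthetase, had a difference of 0.12 ± 0.076 SE at the probe set used. At another one it was 0.51 ± 0.12 SE, with every CLA pool above every control pool (limma, unadjusted p = 0.00131, Benjamini-Hochberg adjusted p = 0.327), and the remaining one gave -0.054. The list's count at an unadjusted p under 0.05 was 1 with the mean of each gene's probe sets and 2 with array medians subtracted.

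Of other lipases and their regulators 9 of 11 lay higher (median 0.088), and the 1 with an unadjusted p under 0.05 was lower: DDHD1, a phosphatidic acid-preferring phospholipase, at -0.24 ± 0.085 SE (limma, unadjusted p = 0.0161, Benjamini-Hochberg adjusted p = 0.461). The list's count was 2, 1 higher and 1 lower, with array medians subtracted and also with the mean of each gene's probe sets. LIPC, hepatic lipase, had a difference of 0.10 ± 0.084 SE at the probe set used and of 0.27 ± 0.12 SE at the other (limma, unadjusted p = 0.0425). G0S2 inhibits PNPLA2. It stood at 11.06, 11.49, 10.71, 10.16 and 10.40 in CLA pools 1 to 5, against 10.57, 10.62, 10.71, 9.42 and 9.89 in control pools 1 to 5. The groups overlapped over much of their range, and the difference of 0.52 ± 0.29 SE had a confidence interval from -0.099 to 1.14 (limma, unadjusted p = 0.0918, Benjamini-Hochberg adjusted p = 0.624).

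Of the lipid droplet genes 7 of 13 lay higher (median 0.030) and 0 had an unadjusted p under 0.05, or 1, lower, with the mean of each gene's probe sets and 1, higher, with array medians subtracted. BSCL2, seipin, which shapes new droplets, had a difference of -0.046 ± 0.071 SE at the probe set used and of -0.37 ± 0.14 SE at the other (limma, unadjusted p = 0.0212, Benjamini-Hochberg adjusted p = 0.485). HSD17B13, a liver droplet enzyme, differed by 0.23 ± 0.11 SE (limma, unadjusted p = 0.0696) and by 0.088 at its second probe set. PLIN2 differed by 0.032 ± 0.21 SE and PLIN5, which tethers droplets to mitochondria, by 0.10 ± 0.17 SE. In the phospholipid branch, which draws on the same phosphatidic acid and diacylglycerol, 5 of 7 genes lay lower (median -0.11). Of them 0 had an unadjusted p under 0.05 as deposited, and 1, lower, after quantile normalization. PCYT2, of phosphatidylethanolamine synthesis, differed by -0.20 ± 0.096 SE (limma, unadjusted p = 0.0646).

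Regulators had 6 of 14 genes higher and 8 lower (median -0.036), with 4 at an unadjusted p under 0.05, where 8.5% of all named genes had one. The list was chosen with earlier results of these data known, so its count is read as no result about regulators. The count was 2 (1 higher, 1 lower) after quantile normalization, 3 (all higher) with array medians subtracted and 3 (2 higher, 1 lower) with gene means. The 4 were NR3C1, the glucocorticoid receptor (0.62 ± 0.12 SE), INSIG1 and INSIG2, which retain the sterol sensor of the endoplasmic reticulum (0.35 ± 0.16 SE and 0.32 ± 0.13 SE), and CNEP1R1, a subunit of the phosphatase that acts on lipins (-0.16 ± 0.070 SE). The limma p of each before adjustment was 0.000289, 0.0497, 0.0325 and 0.0452, and 0 passed after it (adjusted p from 0.272 to 0.562). NR3C1 had every CLA pool above every control pool at this probe set, and its second, dim probe set differed by 0.23, while the other INSIG2 probe sets differed by 0.19 and 0.11. For SREBF1, which drives lipogenic genes under insulin, the difference was 0.054 ± 0.12 SE, with -0.21 to -0.016 at 3 further probe sets. MLXIPL, the carbohydrate response factor, differed by -0.24 ± 0.13 SE and PPARA, the fatty acid receptor of the liver, by -0.27 ± 0.17 SE, with -0.0080 at the second PPARA probe set.

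**Figure D5:**
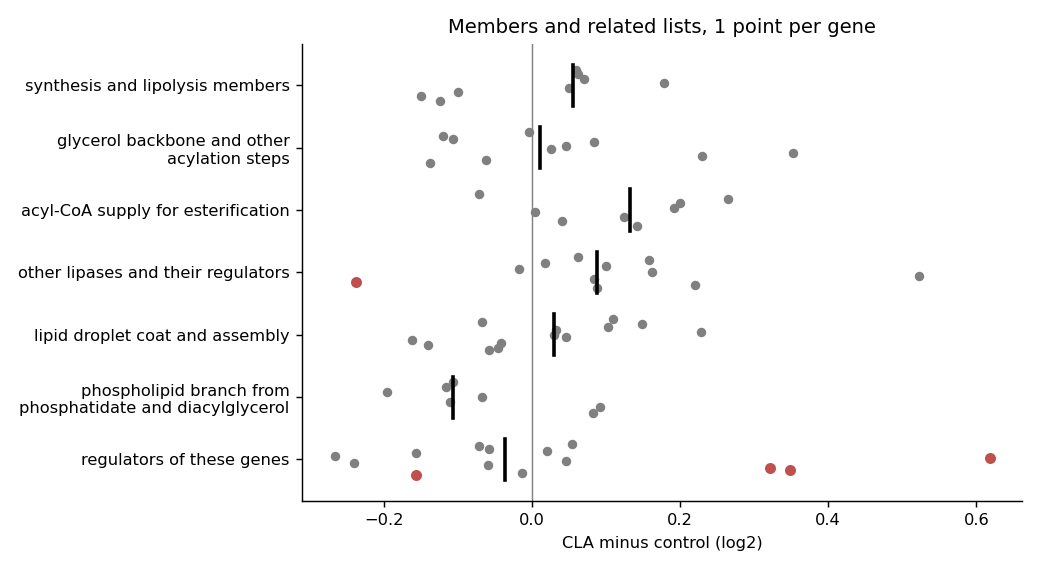
CLA minus control on the log2 scale (horizontal axis) for the 8 measured genes (top) and the 6 lists of related genes, with 1 point per gene, the brightest probe set of each. Red points have an unadjusted p under 0.05 in limma (DDHD1, CNEP1R1, INSIG1, INSIG2 and NR3C1), grey points do not, and black bars are medians, which run from -0.11 for the phospholipid branch to 0.13 for acyl-CoA supply.

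Biopsies can hold other cells that store or break down fat, and fewer cells of a type cannot be told apart from less RNA per cell in pooled tissue. Of 9 measured adipocyte markers 3 lay higher and 6 lower (median -0.010), against 5 and 4 after quantile normalization and 7 and 2 with array medians subtracted, with 0 at an unadjusted p under 0.05 in each of these. Their mean level was 6.25 to 6.71 in the CLA pools and 6.34 to 6.52 in the control pools, and ADIPOQ and LEP, which define the cell type, were among the dimmest 30% of probe sets. That level was raised by PCK1, THRSP and CIDEA (13.76, 8.31 and 7.92 over all pools), against 3.17 for ADIPOQ and 4.05 for LEP. It is therefore no measure of adipocytes alone. CIDEA, CIDEC and LIPE are also counted in the droplet and lipase lists. FABP4 was 8.39 in CLA pool 4, against 4.98 to 5.68 in the other CLA pools and 5.18 to 5.68 in the control pools. CLA pool 4 was the lowest CLA pool for PLIN3 and not the highest for any of the 8 genes. Lymphocyte markers lay lower in 9 of 9, or 8 of 9 under either other scaling (median -0.16 as deposited). Their mean level was 5.79 to 6.03 in the CLA pools and 5.92 to 6.25 in the control pools. Of them 0 had an unadjusted p under 0.05 as deposited or with array medians subtracted, and 1, lower, after quantile normalization. Markers of Kupffer cells lay lower in 7 of 8 (median -0.040), with C1QC at 0.00, in 8 of 8 after quantile normalization and in 4 of 8 with array medians subtracted, and their mean level was 9.55 to 9.82 in the CLA pools and 9.47 to 9.93 in the control pools. Erythroid markers lay lower in 6 of 7 (median -0.058, levels 4.08 to 4.37 in CLA pools and 4.14 to 4.45 in control pools) and skeletal muscle markers in 7 of 9 (median -0.044, levels 5.32 to 5.73 in CLA pools and 5.41 to 5.81 in control pools). Stellate cell markers lay higher in 7 of 9, or 5 of 9 after quantile normalization (median 0.036 as deposited, levels 6.77 to 7.27 in CLA pools and 6.75 to 7.13 in control pools). An unadjusted p under 0.05 was found by limma for LRAT and LUM, higher among the stellate markers, and for HBA, lower among the erythroid ones. The part of these cells in the values above was not tested.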

How the data were processed

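RNA pools were measured on 1-colour Affymetrix arrays, 5 CLA and 5 control. The authors deposited normalized log2 values with 2 decimals, and the submitters' processing notes name Affymetrix Expression Console 1.1 and RMA, with no settings given in the sources used here. Nothing further was done to the values. Of 24128 probe sets 112 manufacturer controls were left out and 24016 tested. Symbols came from the platform annotation, in which 13292 tested probe sets had 1 symbol, 86 several and 10638 none. All 8 symbols described matched RefSeq gene names (assembly ARS-UCD2.0), of which nothing else was used.

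Group differences came from limma 3.58.1 (lmFit, then eBayes; R 4.3.3), fitted to the 10 arrays with no covariate and with Benjamini-Hochberg adjustment over all probe sets. The fit was tested on simulated data. In gene lists each gene had its brightest probe set. Genes named from lists were those with an unadjusted p under 0.05, or the gene of smallest p, with exceptions given in the text. Array measures used exact permutation over all groupings of the arrays, and pairs of genes 14400 within-group arrangements. A planned comparison of probe sets of 1 gene could not be made, as each gene had 1. Genes, lists and tests were chosen with earlier results of these data known. The number of arrays limits the precision. The labels give no pairing of CLA and control pools by number. Deviations of same-numbered pools correlated between -0.086 and 0.092, and those of other pools between -0.32 and 0.30. These values show no sign of pairing but do not settle the matter. The alternatives were leaving out each pool in turn, a model with pool number as block, removal of the 30% of probe sets with the lowest means, quantile normalization, array medians subtracted, eBayes with trend and robust settings, weighted arrays, a test without moderation, and the mean of each gene's probe sets.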

Additional observations from a re-analysis of the deposited data

Results flagged for a closer look

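PLIN3 in control pool 5 was 8.78, against 9.38 to 9.55 in the other control pools, a gap of 0.60 to the nearest. HSD17B13 in CLA pool 2 was 13.61, against 12.99 to 13.12 in the other CLA pools. The SD of the array values was 2.344 in control pool 5, the narrowest of its group. Dixon's ratio, the gap over the range of the group, was 0.779, 0.790 and 0.743 in that order, above the critical value of 0.71. Chance alone marks about 1 in 20 groups, of which 38 were checked. Control pool 5 carried 2 of the 3 marks, and without it the difference of PLIN3 was -0.071. PLIN3 and array SD had r = 0.874 with group means removed, so these 2 marks may not be separate. The check did not cover every gene named here. FABP4 in CLA pool 4, at 8.39 against 4.98 to 5.68 in the other CLA pools, was outside it.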

How the results depend on the processing

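None of the 8 genes passed an adjusted p under 0.05 in any of the 18 alternatives. No other feature of the array did so either, so this is no result about these genes. The count of the 8 at an unadjusted p under 0.05 was 0 as reported. It ranged from 0 to 1 with a pool left out, where 6.56% to 9.56% of all features had such a p. It was 1, GPAM, after subtraction of array medians (8.75% of all features at such a p), with trend and robust options (8.79%), with array weights (9.06%) and with gene means (8.07%), and 2, GPAM and ABHD5, in the unmoderated test (9.17%). The median difference was 0.055, from -0.0055 to 0.094 with a pool left out and -0.023 with array weights. Array weights also turned PNPLA2 to -0.0071 and PLIN3 to -0.038. With a pool left out PNPLA2 ranged from -0.027 to 0.10 and PLIN3 from -0.071 to 0.12, and the other 6 genes kept their sign in all alternatives run. The replicate block, with the pool number in the model, called 0 genes and left the median at 0.055, and GPAM had an unadjusted p of 0.100 in it. No gene pair passed after adjustment with a pool left out or after quantile normalization, and r ranged from 0.566 to 0.822 for GPAM and AGPAT2 and from 0.741 to 0.891 for LPIN1 and PNPLA2. The CLA minus control difference in array SD was 0.029, from 0.022 to 0.035 with a pool left out. ABHD5 was removed by the filter on dim probe sets. Signal over background could not be set, as no detection calls were used.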
